A study of Mus musculus with 16 samples.

Results

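The genes described here are those that cells use to copy their DNA and to divide. Of 51 such genes, 48 were matched by symbol to a probe set of the array and the other 3 were not analysed here. The 48 genes were 21 of S phase and DNA replication and 27 of mitosis, out of 19505 genes measured. They were chosen by their known roles, with earlier results of these data already known. Each gene had 1 probe set, and all values are log2 signals as deposited, so that a difference of 1 is a doubling.

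The RNA came from bone marrow-derived macrophages (BMDM), grown for 5 days from the marrow of female mice aged 10 to 12 weeks, on plates to which cells do not attach. All cultures received 30% medium conditioned by L929 cells, a mouse fibroblast line that releases M-CSF, the growth factor that drives marrow progenitors to divide and become macrophages. WT mice carried Camkk2 +/+, and Camkk2-/- mice lacked the calcium/calmodulin-dependent kinase kinase CaMKK2 in the whole body, so that every cell of the marrow was null and not the macrophages alone. RM-BMDM received regular medium in the same volume in which TCM-BMDM received tumor medium. TCM-BMDM were grown with medium conditioned by E0771, a mouse mammary tumor line, at 20% per the sample labels and 25% per the published methods. Each of the 4 groups (WT RM, Camkk2-/- RM, WT TCM and Camkk2-/- TCM) had 4 arrays, and the replicates of a genotype were made from the long bones of 16 mice. Whether RM and TCM cultures with the same number shared marrow is not stated. Camkk2 itself, as a check of the labels, read 9.11 to 9.83 on the WT arrays and 6.07 to 8.15 on the Camkk2-/- arrays, without overlap. The macrophage surface genes Adgre1 (F4/80) and Itgam (CD11b) read 14.97 or more on every array.

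A cell that enters the cycle first makes the proteins that load and fire replication origins and supply nucleotides, and the E2F transcription factors drive these genes once cyclin-dependent kinases inactivate the retinoblastoma family. The genes of mitosis follow later, when the B-Myb and MuvB proteins act at promoters that hold a CHR element, often with CCAAT boxes bound by NF-Y. Resting macrophages have left the cycle, and macrophages that are growing in M-CSF go through it. In bulk RNA, fewer dividing cells and less RNA per dividing cell cannot be told apart.

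Promoters are shown for up to 3 members of each phase with the smallest p in an F test of any difference among the 4 groups. Of these, Tyms and Prc1 did not pass the adjustment of that test (adjusted p = 0.173 and 0.225). Aurkb, the third mitotic gene by this p, is absent because no promoter was listed for it. The windows run from 250 bases before to 50 bases after the start of the gene, 5′ to 3′ on the strand of the gene, from RefSeq on GRCm38.p6. Capitals mark CCAAT, the CHR letters TTTGAA, and the E2F letters TTTCCCGC, TTTGGCGC, TTTCGCGC or TTTGCCGC, on either strand. The windows lie at chr1:128359656-128359955 (minus strand) for Mcm6, chr2:132253131-132253430 (minus) for Pcna, chr5:30073576-30073875 (minus) for Tyms, chr2:118597961-118598260 (plus) for Bub1b and chr7:80294201-80294500 (plus) for Prc1, for which the first of 2 listed starts was used.
Mcm6: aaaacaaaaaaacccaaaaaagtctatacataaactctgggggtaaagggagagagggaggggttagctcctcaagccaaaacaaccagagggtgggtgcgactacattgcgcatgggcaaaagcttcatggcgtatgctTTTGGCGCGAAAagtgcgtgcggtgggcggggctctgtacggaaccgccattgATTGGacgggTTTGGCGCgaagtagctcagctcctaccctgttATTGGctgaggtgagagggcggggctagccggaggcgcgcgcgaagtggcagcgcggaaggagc
Pcna: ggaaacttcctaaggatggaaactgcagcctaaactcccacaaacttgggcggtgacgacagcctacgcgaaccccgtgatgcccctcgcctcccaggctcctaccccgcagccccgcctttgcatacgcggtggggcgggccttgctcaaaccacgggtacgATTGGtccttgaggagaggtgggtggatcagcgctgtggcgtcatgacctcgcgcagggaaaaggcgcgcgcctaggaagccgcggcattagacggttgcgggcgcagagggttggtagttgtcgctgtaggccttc
Tyms: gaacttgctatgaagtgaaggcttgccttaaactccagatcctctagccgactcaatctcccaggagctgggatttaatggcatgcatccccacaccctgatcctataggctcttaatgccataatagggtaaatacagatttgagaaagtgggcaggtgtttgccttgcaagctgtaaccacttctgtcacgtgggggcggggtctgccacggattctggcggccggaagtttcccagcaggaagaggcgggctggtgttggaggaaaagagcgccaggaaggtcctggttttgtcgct
Bub1b: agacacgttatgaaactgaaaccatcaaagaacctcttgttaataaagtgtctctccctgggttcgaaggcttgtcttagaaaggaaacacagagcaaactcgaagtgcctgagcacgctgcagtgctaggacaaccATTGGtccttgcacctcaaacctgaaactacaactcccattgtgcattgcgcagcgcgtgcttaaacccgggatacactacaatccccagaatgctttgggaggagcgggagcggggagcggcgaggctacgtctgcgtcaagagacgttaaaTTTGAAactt
Prc1: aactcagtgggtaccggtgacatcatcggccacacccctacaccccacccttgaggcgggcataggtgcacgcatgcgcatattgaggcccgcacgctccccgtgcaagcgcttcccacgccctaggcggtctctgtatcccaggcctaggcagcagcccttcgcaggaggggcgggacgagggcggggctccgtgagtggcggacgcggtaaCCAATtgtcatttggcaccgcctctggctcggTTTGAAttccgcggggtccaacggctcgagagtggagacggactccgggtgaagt
The Mcm6 window held 3 E2F matches, of which the first 2 overlap, and 2 CCAAT matches, and the Pcna window held 1 CCAAT match. No searched motif was found in the Tyms window. Bub1b and Prc1 each had 1 CCAAT and 1 CHR match, with the CHR match downstream of the CCAAT match. Across the promoters, the phases differed in these letters. A CHR match was present in 19 of the 23 mitotic genes with a window (82.6%), in 2 of the 17 S-phase genes with a window (11.8%) and in 18.1% of all 27025 genes with one. CCAAT was found in 19 mitotic promoters (82.6%), 10 S-phase promoters (58.8%) and 37.9% of all promoters. An E2F match was found in 5 S-phase promoters (29.4%), namely those of Cdc6, Cdt1, Mcm3, Mcm5 and Mcm6, in 1 mitotic promoter (4.35%, Cdk1) and in 2.32% of all. These are matches of letters and not sites shown to be bound.

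The largest differences among the mitotic genes were between arrays of the same group. The mean over the 27 mitotic genes was 8.37, 7.31, 6.35 and 6.06 on the 4 WT RM arrays and 7.42, 7.07, 6.38 and 6.41 on the Camkk2-/- RM arrays. It was 7.70, 6.38, 5.98 and 5.91 on the WT TCM arrays and 6.72, 6.54, 6.80 and 6.16 on the Camkk2-/- TCM arrays. In both WT groups 1 array, numbered 1 in each, stood well above the others, and the 4 groups overlapped. In all 4 groups the array numbered 1 lay above its group mean and that numbered 4 below it. Between the highest and the lowest array of a group the mitotic mean differed by 2.31 in WT RM, 1.78 in WT TCM, 1.04 in Camkk2-/- RM and 0.64 in Camkk2-/- TCM. By comparison, the group means differed by no more than 0.53, the drop from RM to TCM in WT cells. On leaving out 1 array this drop ran from 0.08 (without the first WT RM array) to 0.93 (without the first WT TCM array). The S-phase mean varied less, with ranges of 0.81 in WT RM, 0.88 in WT TCM, 0.46 in Camkk2-/- RM and 0.24 in Camkk2-/- TCM.

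**Figure D1:**
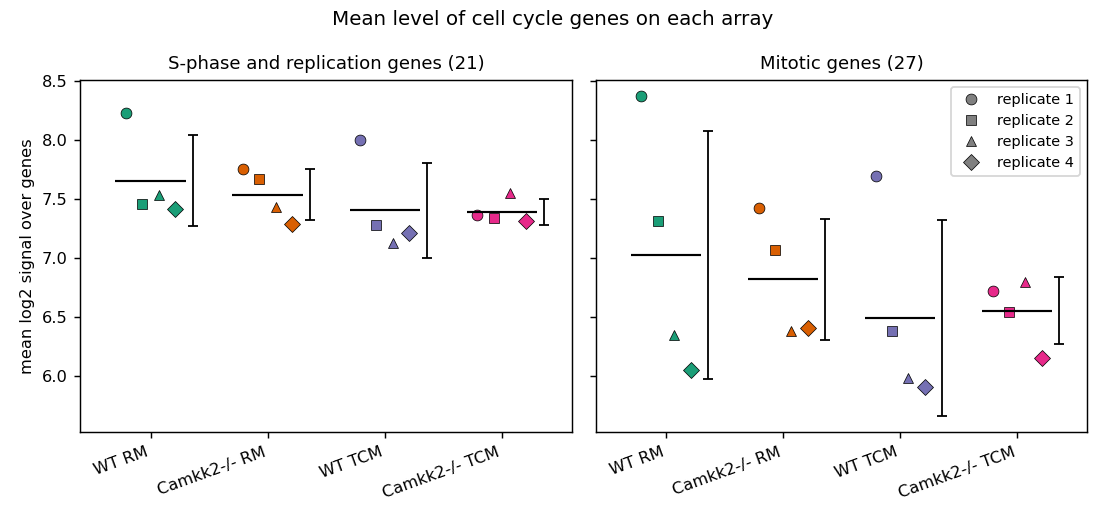
Mean log2 signal over the 21 S-phase genes (left) and the 27 mitotic genes (right) on each of 16 arrays, by group. Horizontal lines are group means, error bars are 1 SD (n = 4) and symbols are replicate numbers; the array numbered 1 is the highest in both WT groups, at 8.37 (RM) and 7.70 (TCM) for the mitotic genes.

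Mki67, which encodes the Ki-67 protein that coats mitotic chromosomes and is the usual label of dividing cells, showed this pattern in full. Its log2 signal was 11.90, 10.64, 9.27 and 8.81 in WT RM-BMDM and 11.06, 10.42, 9.58 and 9.69 in Camkk2-/- RM-BMDM. In TCM it was 11.15, 9.76, 8.35 and 8.15 in WT and 9.97, 9.83, 10.38 and 9.33 in Camkk2-/- cells. The array with most signal thus exceeded the array with least by more within WT RM than any group mean exceeded another. Group means were 10.15 ± 1.40 (SD, n = 4) in WT RM, 10.19 ± 0.69 in Camkk2-/- RM, 9.35 ± 1.40 in WT TCM and 9.88 ± 0.44 in Camkk2-/- TCM. The drop from RM to TCM was not separable from 0 in WT (log2 difference -0.80, 95% interval -2.06 to 0.46, adjusted p = 0.631) or in Camkk2-/- cells (-0.31, -1.57 to 0.95, adjusted p = 0.811). Leaving out 1 array moved the difference for Mki67 between -1.40 (without the first WT TCM array) and -0.22 (without the first WT RM array) in WT cells, and between -0.51 (without the third Camkk2-/- RM array) and -0.02 (without the first Camkk2-/- RM array) in Camkk2-/- cells. Intervals this wide leave room for both a large fall and a modest rise.

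The spread was a property of the mitotic genes as a group. The within-group SD, pooled over the 4 groups, had a median of 0.74 over the mitotic genes, 0.37 over the S-phase genes and 0.28 over all genes. Ube2c, the E2 enzyme with which the anaphase-promoting complex marks cyclins for destruction, had an SD of 1.55, the highest of all 19505 genes. Its signal ran from 4.93 to 9.96 within WT RM and from 4.65 to 8.38 within WT TCM. Polo-like kinase Plk1 (SD 1.19) and Mki67 (1.07) came next among the members, and the checkpoint kinase Bub1 had an SD of 1.02. At the other end, Tyms, which makes thymidylate, had an SD of 0.20. Mcm10 and Tk1 had SDs of 0.23, and Pcna, the sliding clamp of the replication fork, one of 0.24.

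**Figure D2:**
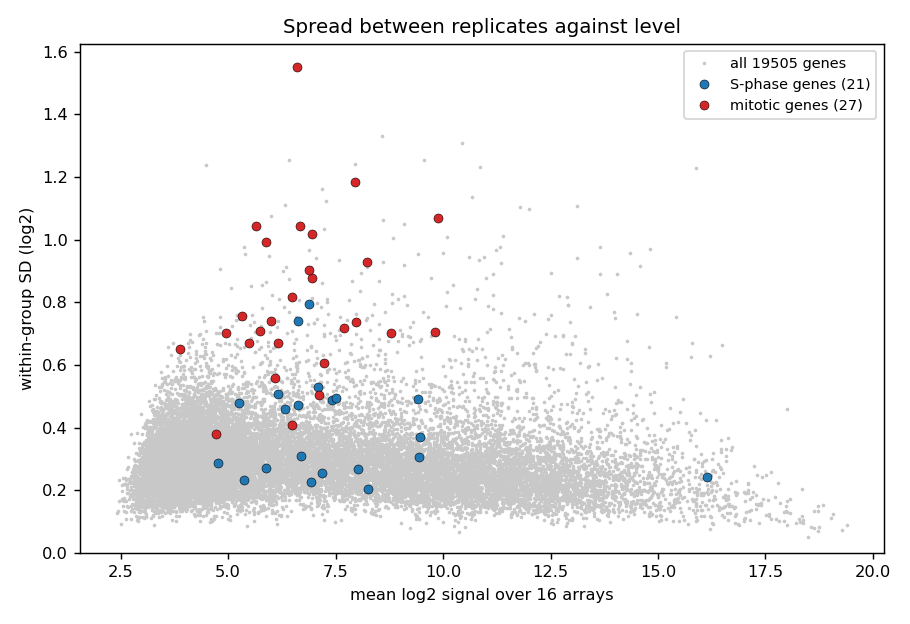
Within-group SD of log2 signal against mean log2 signal over 16 arrays for all 19505 genes (grey), the 21 S-phase genes (blue) and the 27 mitotic genes (red). The mitotic genes lie along the upper edge of the cloud, with Ube2c at 1.55 above every other gene.

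Members moved together from array to array. After the group means were subtracted, the correlation of each gene with the mean of the other members over the 16 arrays had a median of 0.89 in the mitotic genes (0.63 to 0.98) and 0.65 in the S-phase genes (0.22 to 0.92). It exceeded 0.7 in 26 of 27 mitotic and 10 of 21 S-phase genes. Ube2c and Plk1 (both 0.98), cyclin B2 (Ccnb2, 0.97) and Mki67 (0.97) followed the others most closely, and Cenpf, a kinetochore protein whose signal lay near background, least (0.63). Against the mean of the mitotic genes alone, the subunits of ribonucleotide reductase, Rrm1 and Rrm2, had correlations of 0.88 and 0.87 and the helicase subunit Mcm5 one of 0.89. The correlation with the mitotic mean was 0.18 for E2f1, 0.21 for Tyms, 0.36 for the origin-firing factor Mcm10 and 0.40 for Pcna. The mitotic genes with a CHR match (19 genes) and without one (4 genes) both had a median of 0.88. The S-phase mean and the mitotic mean had a Pearson r of 0.91 and a Spearman rho of 0.80 over the 16 arrays, and 0.77 and 0.71 without the 2 arrays farthest from the median. These are descriptions, since the genes share arrays and RNA.

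**Figure D3:**
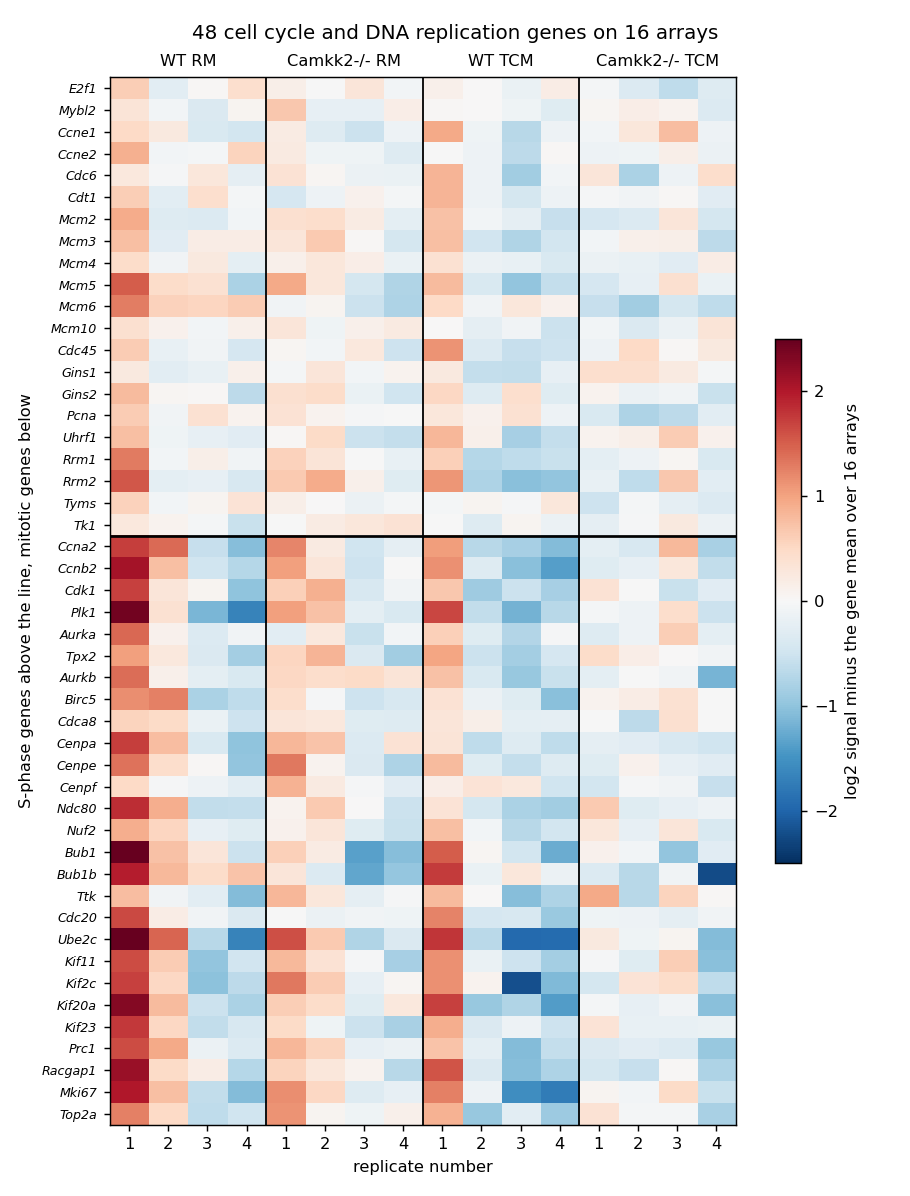
Log2 signal of 48 genes on 16 arrays, each gene centred on its own mean (red above, blue below; scale from -2.5 to 2.5). Mitotic genes, below the black line, are red together on the array numbered 1 of both WT groups and blue together on those numbered 3 and 4.

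Of the other 19457 genes, the 10 with the highest correlation with the mean of the members over the 16 arrays were Cdca3 (0.969), Nek2 (0.955), Nusap1, Shcbp1, Neil3, Ect2, Asf1b, Cep55, Knl1 and H3c14 (0.895). Nusap1 binds spindle microtubules, Ect2 and Cep55 act in cytokinesis and Knl1 is a kinetochore scaffold. A list of 71 further mitotic genes moved with the 27 (r = 0.98 between the means, group means subtracted), as did 15 genes of homologous recombination (0.94), while 7 inhibitors of cyclin-dependent kinases (-0.10) and 13 p53 targets (-0.03) did not. Myc, the growth-promoting transcription factor that M-CSF induces, had r = 0.95 and Mertk, a receptor of mature macrophages that take up dying cells, -0.82; both were singled out after their values were seen. Myc read 10.99, 10.15, 9.63 and 9.09 on the WT RM arrays and 11.05, 10.00, 9.48 and 8.89 on the WT TCM arrays. Mertk ran the other way, at 9.93, 9.72, 10.84 and 11.37 in WT RM and 10.26, 11.28, 11.64 and 11.86 in WT TCM.

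Genes of marrow granulocyte precursors (Mpo, Elane, Prtn3, Ctsg, Ms4a3, Cebpe and Fcnb) also moved with the mitotic mean, less closely (r = 0.64). The log2 of their summed signal was 8.33 to 9.24 in WT RM, 8.87 to 10.29 in Camkk2-/- RM, 9.75 to 12.57 in WT TCM and 10.38 to 12.90 in Camkk2-/- TCM. Of these 7 genes, 3 rose in TCM in WT and 4 in Camkk2-/- cells, against 2.21% and 6.13% of all genes. Mpo was highest on the same array as the mitotic mean in both TCM groups, at 11.53 on the first WT TCM array and 11.81 on the third Camkk2-/- TCM array. This was also so in WT RM, where Mpo read 7.63 on the first array and 7.38 on the next. That first WT RM array had the highest mitotic mean of all arrays. In Camkk2-/- RM the highest Mpo array was the third (9.03), which had the lowest mitotic mean of its group. The mean of the 7 macrophage genes measured had r = 0.05 with the mitotic mean, over genes that ran both ways: Csf1r (0.76), Itgam (0.70), Cd14 (0.64), Adgre1 (0.63) and Lyz2 (0.45) against Fcgr1 (-0.45) and Mertk (-0.82). The part that other dividing marrow cells had in the spread was not tested.

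Few of the cell cycle genes were called as different between RM and TCM in the main fit, which did not include the replicate number. In WT cells none of the 48 passed an adjusted p of 0.05 in limma (2.91% of all genes did). At an unadjusted p under 0.05 no member was higher (9.04% of all genes) and 4 were lower, namely Mcm6, Ccne2, Rrm1 and Prc1 (5.11% of all genes). In Camkk2-/- cells 1 member was called, Pcna, which was lower, against 11.5% of all genes in either direction and 5.37% lower. Averaged over the genotypes none was called (14% of all genes), with 8 lower (11.7% of all genes) and none higher (14.7%) at an unadjusted p under 0.05. Mcm6, Prc1 and Pcna lay just short of the threshold (adjusted p = 0.0598, 0.0649 and 0.0722) and passed it when genes below the antigenomic median were left out of the adjustment. Without the first WT TCM array, 5 members were called, all lower. With the replicate number as a block 4 were called, among them Prc1, Aurkb and Mcm6, each lower. The shares of all genes called under these changed settings are not given here, so these counts cannot be set against them. The estimates leaned one way: 45 of 48 were below 0 in WT cells, with a median of -0.38, against 43.9% of all genes and a median over all genes of 0.04. In Camkk2-/- cells 36 of 48 were below 0 (median -0.25), against 48.9% of all genes, and all 27 mitotic estimates averaged over genotypes were below 0, against 45.4%. Since the members move together on each array, these counts are not 48 separate observations.

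**Figure D4:**
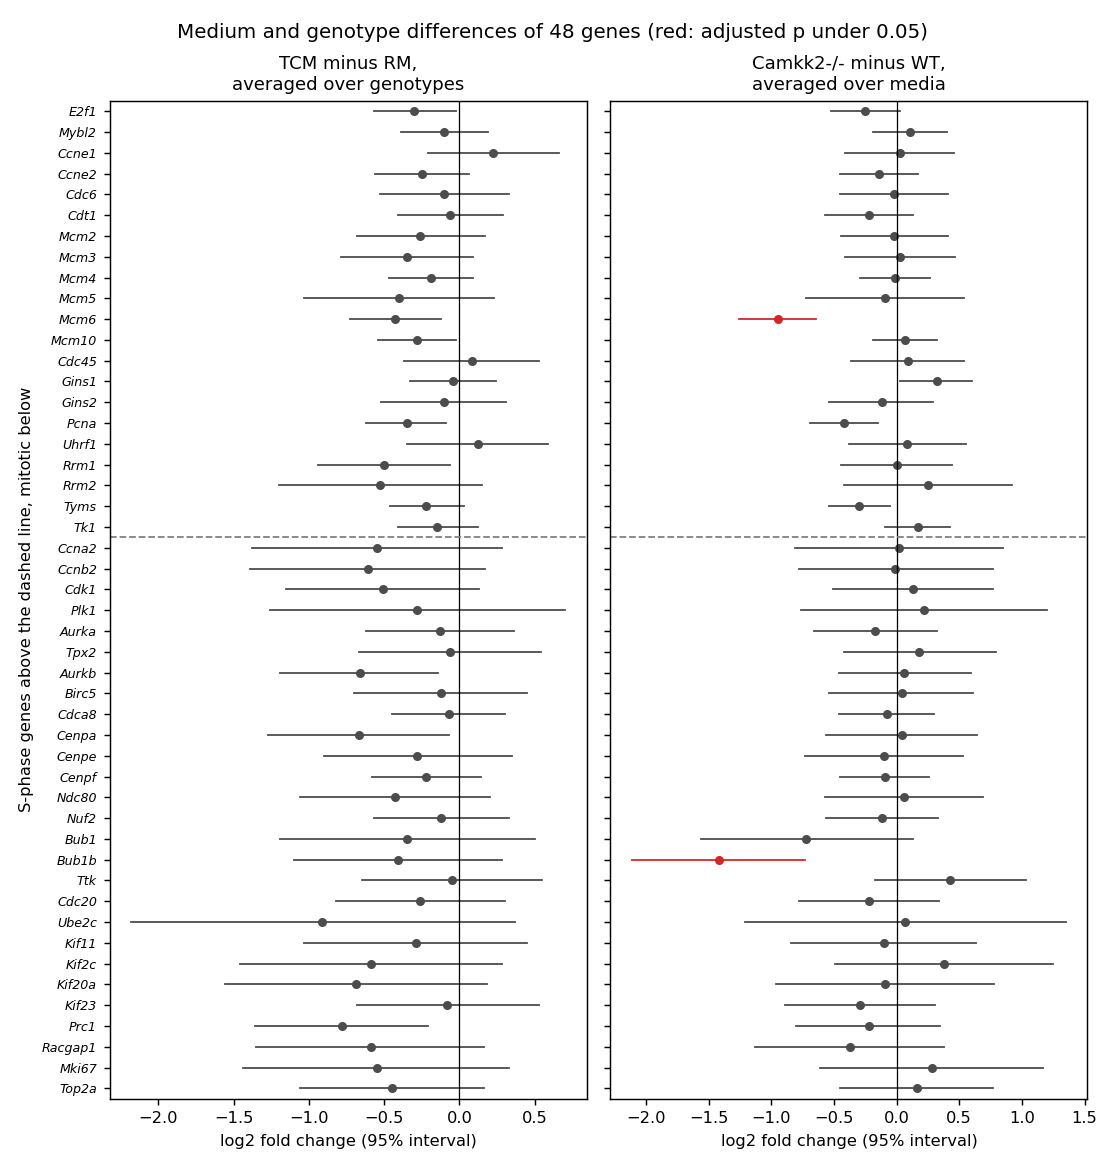
Log2 fold change with its 95% interval for each of 48 genes, TCM minus RM averaged over genotypes (left) and Camkk2-/- minus WT averaged over media (right). Red marks an adjusted p under 0.05, reached by Mcm6 and Bub1b in the genotype comparison and by no gene in the medium comparison; all 27 mitotic estimates for medium lie below 0, most with intervals that cross it.

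Among the mitotic genes, Prc1, which bundles the antiparallel microtubules of the central spindle, came nearest to a call for medium. Its signal lay near background. Prc1 exceeded 5.37, the median of probe sets that match no mouse sequence, on 5 of 16 arrays and on no Camkk2-/- TCM array. It read 7.10, 6.42, 5.34 and 5.13 in WT RM, 6.19, 5.24, 4.39 and 4.89 in WT TCM, 6.31, 6.03, 5.27 and 5.34 in Camkk2-/- RM and 5.12, 5.19, 5.14 and 4.53 in Camkk2-/- TCM. Every Camkk2-/- TCM array was below every Camkk2-/- RM array, as in 9.23% of all genes, and the WT groups overlapped. The log2 difference averaged over genotypes was -0.78 (SE 0.28, adjusted p = 0.0649). It was called with the replicate number as a block (adjusted p = 0.00382). Aurora B (Aurkb), the kinase that corrects faulty attachments of chromosomes to the spindle, read 8.64, 7.37, 7.0 and 6.86 in WT RM and 7.98, 6.87, 6.29 and 6.69 in WT TCM. In Camkk2-/- cells it read 7.77, 7.68, 7.72 and 7.57 in RM and 6.99, 7.24, 7.15 and 6.08 in TCM, again without overlap. Its difference was -0.82 in Camkk2-/- cells (SE 0.36, adjusted p = 0.161) and -0.66 averaged over genotypes (SE 0.25, adjusted p = 0.0885). The averaged difference was called with the replicate number as a block (adjusted p = 0.0286).

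The centromeric histone Cenpa read 11.55, 10.58, 9.43 and 8.80 in WT RM, 10.13, 9.17, 9.49 and 9.18 in WT TCM, 10.65, 10.53, 9.47 and 10.18 in Camkk2-/- RM and 9.58, 9.52, 9.42 and 9.31 in Camkk2-/- TCM. The groups overlapped, with a difference for medium of -0.67 (SE 0.29, adjusted p = 0.135). Cenpf read 5.21, 4.69, 4.59 and 4.45 in WT RM, 4.88, 5.05, 4.98 and 4.22 in WT TCM, 5.59, 4.94, 4.69 and 4.43 in Camkk2-/- RM and 4.25, 4.68, 4.62 and 4.14 in Camkk2-/- TCM. Most of its values lay below 5.37, the median of probe sets that match no mouse sequence, as did the means of Mybl2, Cdc6, Cdk1, Ttk and Cdc20. The other 42 members had means above it, and 30 of the 48 members exceeded it on every array. Cdc20, the activator of the anaphase-promoting complex, read 2.96 to 5.53.

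Averaged over media, loss of Camkk2 went with lower signal of 1 subunit of the replicative helicase and of 1 checkpoint gene. These 2 of 48 members were about the share of all genes called in either direction (4.76%, with 1.73% lower). The means of the phases gave no settled direction. The genotype difference of the mitotic mean was -0.20 in RM and 0.06 in TCM. On leaving out 1 array it ran from -0.53 (without the fourth WT array) to 0.25 (without the first WT array) in RM, and from -0.13 (without the fourth WT array) to 0.46 (without the first WT array) in TCM. The S-phase mean ran from -0.20 (without the fourth WT array) to 0.07 (without the first WT array) in RM and from -0.10 (without the third WT array) to 0.19 (without the first WT array) in TCM. Mcm6, part of the hexamer that unwinds DNA at the fork, read 10.74, 10.02, 9.98 and 10.08 in WT RM and 9.37, 9.53, 8.91 and 8.69 in Camkk2-/- RM. In TCM it read 9.95, 9.37, 9.74 and 9.56 in WT and 8.87, 8.59, 9.02 and 8.82 in Camkk2-/- cells. The genotypes did not overlap in either medium, which was so for 1.72% of all genes as lower in RM and 5.15% in TCM. Mcm6 was 2.11 times lower in Camkk2-/- RM-BMDM (log2 -1.08, SE 0.21, adjusted p = 0.0113) and 1.78 times lower in Camkk2-/- TCM-BMDM (-0.83, SE 0.21, adjusted p = 0.0231). It was the only member called in RM, where 0.738% of all genes were called (0.292% lower), and 1 of 2 called in TCM, where 4.49% were (1.79% lower). The call in RM was lost without the third Camkk2-/- array (-1.0, adjusted p = 0.0542), and that in TCM without the first or the third WT array or the first or second Camkk2-/- array (-0.73 to -0.84, adjusted p = 0.0517 to 0.0898). For 4 other subunits of the hexamer, the ones analysed here and none of them called, the genotype difference averaged over media was -0.02 for Mcm2, 0.03 for Mcm3, -0.01 for Mcm4 and -0.09 for Mcm5 (SE 0.14 to 0.30), against -0.95 for Mcm6 (SE 0.15, adjusted p = 0.000391, a call kept on leaving out any 1 array). Whether Mcm6 differed from these subunits in its response was not tested.

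**Figure D5:**
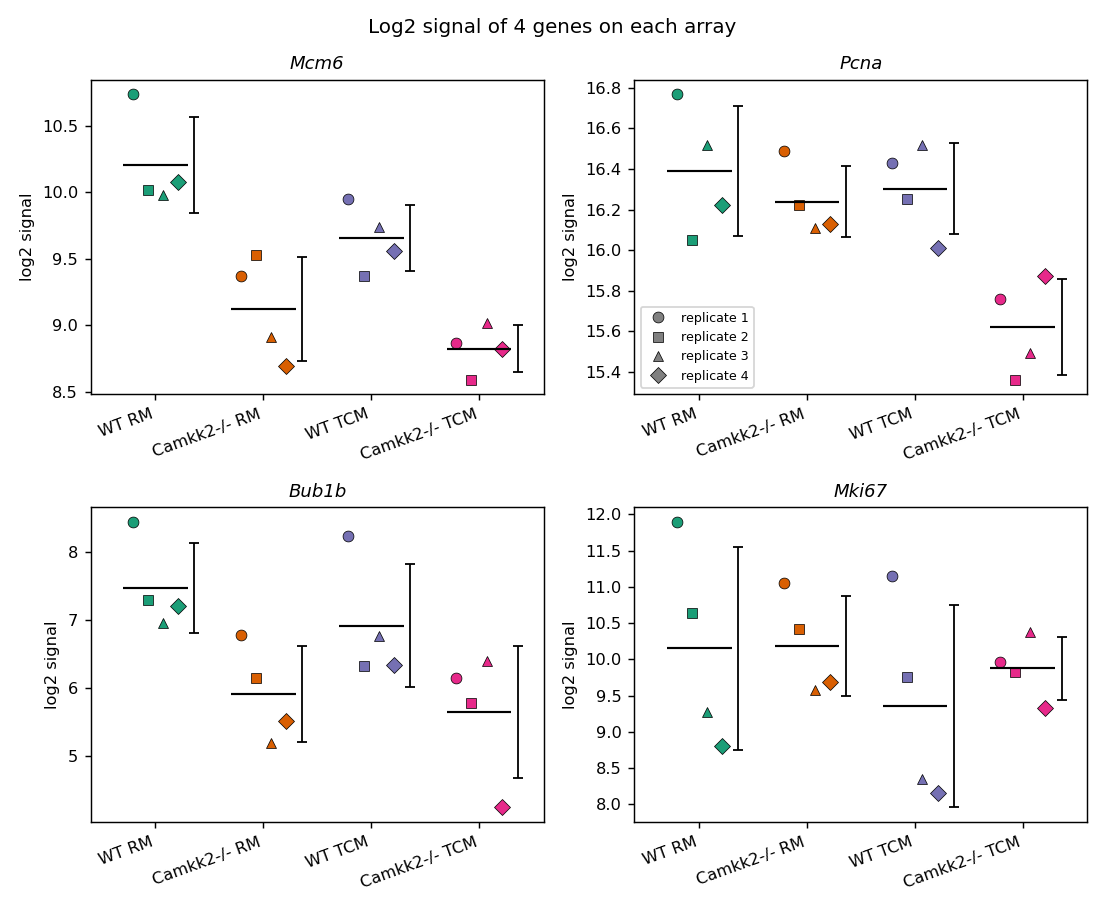
Log2 signal of Mcm6, Pcna, Bub1b and Mki67 on each array by group, with group means (lines), 1 SD (bars, n = 4) and replicate numbers (symbols). Mcm6 separates the genotypes in both media, Pcna is lowest in Camkk2-/- TCM-BMDM (15.36 to 15.87), Bub1b is lower in Camkk2-/- cells and Mki67 overlaps in all groups.

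Bub1b encodes BubR1, which holds the anaphase-promoting complex in check until chromosomes are attached. It read 8.44, 7.29, 6.95 and 7.20 in WT RM against 6.78, 6.15, 5.19 and 5.51 in Camkk2-/- RM, lower without overlap, as were 1.72% of all genes. In TCM the values were 8.23, 6.32, 6.76 and 6.34 in WT and 6.14, 5.78, 6.40 and 4.24 in Camkk2-/- cells, where the third array exceeded the lower WT arrays. Averaged over media Bub1b was 2.68 times lower in Camkk2-/- cells (log2 -1.42, SE 0.33, adjusted p = 0.0128), in a comparison that called 2 of 48 members, both lower, and 4.76% of all genes (1.73% lower). Within RM (-1.56, SE 0.47, adjusted p = 0.186) and within TCM (-1.27, SE 0.47, adjusted p = 0.157) it was not called, but with the replicate number as a block it was called in both (adjusted p = 0.0182 and 0.025). Its partner Bub1 read 9.46, 7.68, 7.26 and 6.41 in WT RM, 7.54, 7.15, 5.59 and 5.88 in Camkk2-/- RM, 8.47, 6.99, 6.48 and 5.70 in WT TCM and 7.05, 6.89, 5.97 and 6.66 in Camkk2-/- TCM. The genotypes overlapped in both media (averaged difference -0.72, SE 0.41, adjusted p = 0.455).

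Pcna was lower in 1 group. It read 16.77, 16.05, 16.52 and 16.22 in WT RM, 16.49, 16.22, 16.11 and 16.13 in Camkk2-/- RM and 16.43, 16.25, 16.52 and 16.01 in WT TCM, against 15.76, 15.36, 15.49 and 15.87 in Camkk2-/- TCM. The last group lay below every array of the other 3. Of all genes, 9.23% were lower without overlap in TCM than in RM in Camkk2-/- cells. In TCM 5.15% were lower without overlap in Camkk2-/- than in WT cells. Camkk2-/- TCM-BMDM had 1.54 times less Pcna signal than Camkk2-/- RM-BMDM (log2 -0.62, SE 0.18, adjusted p = 0.0295) and 1.6 times less than WT TCM-BMDM (-0.68, SE 0.18, adjusted p = 0.0325). These comparisons share the 4 Camkk2-/- TCM arrays. The call for medium was lost without the first or second Camkk2-/- RM array or the second or the third Camkk2-/- TCM array (adjusted p up to 0.105), and that for genotype without any 1 of 6 arrays (adjusted p up to 0.129). The difference between the genotypes in the effect of medium was -0.53 (SE 0.26, 95% interval -1.06 to 0.00, adjusted p = 0.619) and was not called, and no member was (0.144% of all genes). At an unadjusted p under 0.05 no member was called either, against 3.49% of all genes higher and 4.69% lower.

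The remaining S-phase genes with small p in the test over 4 groups did not pass the adjustment, which 3 members (Mcm6, Pcna and Bub1b) and 13.5% of all genes did. Tyms read 8.83, 8.18, 8.31 and 8.59 in WT RM, 8.40, 8.25, 8.09 and 8.20 in Camkk2-/- RM, 8.20, 8.32, 8.21 and 8.52 in WT TCM and 7.72, 8.20, 8.02 and 7.90 in Camkk2-/- TCM. E2f1, the transcription factor at the head of the S-phase program, read 7.80, 6.92, 7.22 and 7.61 in WT RM, 7.32, 7.18, 7.48 and 7.11 in Camkk2-/- RM, 7.31, 7.20, 7.02 and 7.36 in WT TCM and 7.13, 6.84, 6.55 and 6.85 in Camkk2-/- TCM. Both had their lowest array among the Camkk2-/- TCM cultures, and the groups overlapped. Gins1, a subunit of the GINS complex of the active helicase, read 6.13, 5.64, 5.70 and 6.02 in WT RM, 5.85, 6.19, 5.82 and 5.98 in Camkk2-/- RM, 6.13, 5.29, 5.28 and 5.69 in WT TCM and 6.31, 6.31, 6.12 and 5.85 in Camkk2-/- TCM. Cyclin E2 (Ccne2), which activates CDK2 at the start of S phase, read 7.57, 6.62, 6.65 and 7.24 in WT RM, 6.91, 6.59, 6.58 and 6.36 in Camkk2-/- RM, 6.68, 6.57, 6.03 and 6.71 in WT TCM and 6.57, 6.59, 6.83 and 6.54 in Camkk2-/- TCM. Gins1 was the only member higher at an unadjusted p under 0.05 for genotype, by 0.55 in TCM (SE 0.19, adjusted p = 0.134), where 7.6% of all genes were. Without the first WT TCM array it was called (0.73, adjusted p = 0.0268).

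Upstream of the members, a few genes that govern entry into the cycle rose in TCM. Of 10 G1 cyclins, kinases and regulators, 1 rose in TCM in WT cells and 2 rose in Camkk2-/- cells, and none fell. Of all genes 2.21% rose and 0.697% fell in WT cells and 6.13% rose and 5.37% fell in Camkk2-/- cells. Cyclin D2 (Ccnd2), which growth factors induce to start the inactivation of retinoblastoma proteins, read 6.89, 7.07, 6.84 and 6.80 in WT RM and 7.47, 7.70, 7.25 and 6.62 in Camkk2-/- RM. In TCM it read 9.16, 8.34, 7.16 and 8.06 in WT and 10.61, 10.73, 10.39 and 9.50 in Camkk2-/- cells, so that every TCM array was above every RM array of its genotype. Ccnd2 was 2.43 times higher in TCM in WT cells (log2 1.28, SE 0.33, adjusted p = 0.0377), 8.28 times higher in Camkk2-/- cells (3.05, SE 0.33, adjusted p = 1.84e-06) and 4.38 times higher in TCM-BMDM that lacked Camkk2 than in those that did not (2.13, SE 0.33, adjusted p = 0.000446). The call in WT cells was lost on leaving out any 1 of 7 of the 8 WT arrays (adjusted p = 0.0688 to 0.111). Cyclin D3 (Ccnd3) rose in TCM in Camkk2-/- cells (0.94, SE 0.28, adjusted p = 0.0298), a call lost without any 1 of 5 arrays (adjusted p up to 0.0921). Genes of mature neutrophils also rose in TCM, 5 of 9 in each genotype, with the log2 of their summed signal at 14.60 to 15.35 in WT RM, 14.74 to 15.58 in Camkk2-/- RM, 15.61 to 16.40 in WT TCM and 16.18 to 16.95 in Camkk2-/- TCM. Their part in the rise of these and the following genes was not tested.

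Among 7 inhibitors of cyclin-dependent kinases, Cdkn2c (p18) fell by 1.03 and Cdkn2d (p19) rose by 0.94 in TCM in Camkk2-/- cells (adjusted p = 0.0088 and 0.00188). Of all genes, 5.37% fell and 6.13% rose in that comparison. No inhibitor was called in WT cells (2.91% of all genes). Cdkn1b (p27) fell by 0.57 averaged over genotypes (adjusted p = 0.0128), where 6.09% of all genes fell. Of 16 pocket proteins, other E2Fs and MuvB subunits, 1 rose and 2 fell in TCM in Camkk2-/- cells (6.13% and 5.37% of all genes). Rbl1 (p107), the retinoblastoma relative that holds E2F targets down, read 9.77, 9.45, 10.06 and 9.86 in WT RM, 9.83, 9.63, 9.47 and 9.80 in Camkk2-/- RM, 10.14, 9.79, 9.70 and 10.32 in WT TCM and 11.30, 11.42, 11.14 and 11.11 in Camkk2-/- TCM. The last group lay above all other arrays. Rbl1 rose 2.95 times in TCM in Camkk2-/- cells (log2 1.56, SE 0.17, adjusted p = 2.65e-06), and this rise exceeded that in WT cells by 1.36 (SE 0.24, adjusted p = 0.024 for the interaction, 0.053 to 0.0614 without any 1 of 7 arrays). The genes that fell were Tfdp2, a partner of E2Fs (-1.0, adjusted p = 0.025), and the repressor E2f6 (-0.54, adjusted p = 0.0461). These calls were lost without any 1 of 4 and 11 arrays (adjusted p up to 0.0942 and 0.141). No p53 target of 13 was called for medium in either genotype (2.91% of all genes in WT and 11.5% in Camkk2-/- cells). Averaged over genotypes 1 was, against 14% of all genes. It was Mdm2, which encodes the ubiquitin ligase of p53 (0.66, adjusted p = 0.0306, and 0.0504 to 0.0705 without any 1 of 7 arrays).

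Of 47 further replication genes, 8 rose and 1 fell in TCM in Camkk2-/- cells (6.13% and 5.37% of all genes), while 1 rose and 1 fell in WT cells (2.21% and 0.697%). On leaving out 1 array the count of 8 ran from 3, without the third Camkk2-/- TCM array, to 9, and was also down to 4 without the fourth Camkk2-/- RM array and to 5 without the second or the fourth Camkk2-/- TCM array. Dck, deoxycytidine kinase of the nucleotide salvage pathway, rose in both (1.11, adjusted p = 0.0108 in WT and 2.16, adjusted p = 2.45e-06 in Camkk2-/- cells), and the nuclease Dna2 fell in both (-0.99, adjusted p = 0.00395 and -0.66, adjusted p = 0.0235, the latter lost without any 1 of 3 arrays, adjusted p up to 0.0933). Timeless, which stabilizes replication forks (1.22, adjusted p = 0.00138), and the polymerase delta subunit Pold3 (0.71, adjusted p = 0.0115) rose in Camkk2-/- cells. The median difference for medium was -0.14 over the 47 genes and -0.16 over the 21 S-phase members in WT cells, and 0.05 and -0.21 in Camkk2-/- cells. For genotype, Chaf1b, a subunit of the CAF-1 complex that deposits histones behind the fork, was 2.38 times lower in Camkk2-/- RM-BMDM (log2 -1.25, SE 0.24, adjusted p = 0.0113) and 2.03 times lower in Camkk2-/- TCM-BMDM (-1.02, SE 0.24, adjusted p = 0.0159). It read 7.34 to 8.04 in WT RM, 6.17 to 6.88 in Camkk2-/- RM, 7.0 to 8.40 in WT TCM and 6.34 to 6.69 in Camkk2-/- TCM, without overlap between genotypes. The call in RM was lost without the third WT or the third Camkk2-/- array (adjusted p = 0.0522 and 0.0593).

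Of the 71 further mitotic genes, 1 rose and 1 fell in TCM in WT cells (2.21% and 0.697% of all genes). In Camkk2-/- cells 2 rose and 1 fell (6.13% and 5.37% of all genes). The condensin II subunit Ncapg2, which helps to compact chromosomes, was called for medium in both genotypes and for genotype in both media. It read 7.73, 6.95, 7.75 and 7.23 in WT RM, 5.98, 5.75, 5.28 and 5.54 in Camkk2-/- RM, 9.03, 8.05, 8.36 and 9.05 in WT TCM and 7.67, 7.58, 7.33 and 7.15 in Camkk2-/- TCM. Both media and both genotypes separated without overlap. Ncapg2 was 3.43 times lower in Camkk2-/- RM-BMDM (log2 -1.78, SE 0.24, adjusted p = 0.000283), 2.28 times lower in Camkk2-/- TCM-BMDM (-1.19, SE 0.24, adjusted p = 0.00441) and higher in TCM by 1.21 in WT (adjusted p = 0.00574) and 1.79 in Camkk2-/- cells (adjusted p = 2.15e-05). Securin (Pttg1) rose by 1.74 in Camkk2-/- cells (adjusted p = 0.000387), Cks2, a small partner of CDK1, fell by 1.01 in WT cells (adjusted p = 0.021), and Incenp, the scaffold of Aurora B, fell by 0.69 in Camkk2-/- cells (adjusted p = 0.0191). The calls of Cks2 and Incenp were lost without any 1 of 5 and 4 arrays (adjusted p up to 0.0822 and 0.0742). No gene of 15 in homologous recombination or of 5 linker histones was called for medium in either genotype. Of all genes, 2.91% were called in WT and 11.5% in Camkk2-/- cells.

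Of 12 genes that control macrophage growth, 2 rose in TCM in WT cells (2.21% of all genes). In Camkk2-/- cells 2 rose and 2 fell (6.13% and 5.37% of all genes). Csf1, which encodes M-CSF, rose in both (1.55, adjusted p = 0.0108 in WT, 0.0566 without the second WT TCM array, and 1.97, adjusted p = 0.000317 in Camkk2-/- cells), and its receptor Csf1r fell by 0.81 in Camkk2-/- cells (adjusted p = 0.00179). Maf, which restrains self-renewal of mouse macrophages, rose in both (0.82, adjusted p = 0.0452 and 0.92, adjusted p = 0.00692), in WT cells a call lost without any 1 of 12 arrays (adjusted p up to 0.171). The early growth response factor Egr2 fell by 1.78 in TCM in Camkk2-/- cells (adjusted p = 1.55e-06), a fall 1.46 larger than in WT cells (interaction -1.46, SE 0.27, adjusted p = 0.0255, and 0.0524 to 0.0717 without any 1 of 9 arrays).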

How the data were processed

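RNA of 16 BMDM cultures was hybridised to Affymetrix whole-transcript arrays. The authors deposited 1 table of log2 signals per probe set, and Affymetrix Expression Console is the tool in the submitters' processing notes. The probe summarization, the normalization and the genome build were not given in the sources used here. Signals ran from 1.63 to 19.56, with array medians over genes of 5.77 to 5.91, and were used as deposited. Of 28846 probe sets, 6640 controls and 2634 that did not carry exactly 1 gene symbol were left out. For 55 genes with several probe sets the one with the highest mean was kept, giving 19505 genes. The 23 antigenomic probe sets (median 5.37) gave the background. Precision is limited by the number of arrays, and p-values measure only the spread between these cultures.

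A linear model with 4 group means was fitted to all 16 arrays in R 4.3.3 with limma 3.58.1 and moderated by eBayes. Benjamini-Hochberg adjustment ran over every gene tested, and a call was an adjusted p under 0.05. In simulated arrays of this size for the genotype comparison in TCM (19505 genes), 73 of 100 genes changed by 1 on the log2 scale and 98 of 100 changed by 2 were called, with 5 false calls. The changed genes were drawn at random from all genes, with errors independent between genes. The median within-group SD was 0.28 over all genes and 0.74 over the mitotic genes, so these shares do not hold for the mitotic genes. The members and lists were chosen with earlier results of these data known. Values on every array are given for Mki67 and, in each phase, for the 6 members with the smallest p of the test over 4 groups. From each further list up to 4 genes with the smallest adjusted p are named, and of all other genes the 10 most correlated with the mean of the members. Promoters of 27025 genes came from RefSeq (GRCm38.p6). Among the alternatives were leaving out each array, a replicate block, array weights, repeated normalization, filters on low signal and other thresholds. Leaving out both WT arrays numbered 1 was chosen after seeing the data.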

Additional observations from a re-analysis of the deposited data

Results flagged for a closer look

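Within groups of 4 arrays, 12 of the 204 tested sets of values (48 members and their means, by group) had 1 array that stood apart from the other 3 by Dixon's criterion, which chance meets in about 1 in 20 sets. The first WT RM array was highest for the mean of the S-phase members (8.22), for Mcm6 (10.74) and for Rrm2 (8.44, the next at 6.67). The first WT TCM array was highest for Cdc45 (7.29, the next at 5.82), Rrm1 (10.01) and Rrm2 (7.98). Among the Camkk2-/- TCM arrays, the third was highest for Mcm2 (6.93) and Uhrf1 (7.71), the first was highest for Ndc80 (6.64) and Kif23 (9.13), and the fourth was lowest for Kif20a (4.60) and Prc1 (4.53). The mitotic mean was not among the 12.

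The effect of TCM differed between the genotypes, by the interaction term in limma, for 2 genes of the lists and for no member. It was larger in Camkk2-/- cells by 1.36 for Rbl1 (adjusted p = 0.024) and more negative there by a difference of -1.46 for Egr2 (adjusted p = 0.0255).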

How the results depend on the processing

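The differences of the phase means between groups moved by less than the replicate SD under all alternatives run. Leaving out 1 of the 4 arrays of a group cannot move them by more, so those runs say nothing of stability. The genotype differences of both phases crossed 0 on leaving out 1 array, from -0.53 to 0.25 in RM and -0.13 to 0.46 in TCM for the mitotic mean. The mitotic difference between TCM and RM in WT cells ran from -0.93 to -0.08. Counts of called members, all lower unless stated, were small and moved with the settings. Shares of all genes are given for the main fit alone, so counts under other settings have no share to be set against. For medium averaged over genotypes, 0 members were called (8 at an unadjusted p under 0.05), against 1 with trend and robust eBayes, 2 with array weights or with replicates 1 and 2 set against 3 and 4 as a factor, 3 with repeated quantile normalization, with arrays centred on their median, without the 40% of genes of lowest mean or with genes above the antigenomic median, 4 at an adjusted p under 0.1 or without both WT arrays numbered 1, and 0 to 5 on leaving out 1 array. For medium in Camkk2-/- cells, 1 was called, against 3 when only the 8 arrays of the comparison were fitted, 2 without both WT arrays numbered 1, 0 at an adjusted p under 0.01 and 0 to 1 on leaving out 1 array. For genotype, an adjusted p under 0.01 left 0 members in RM, 0 in TCM and 1 averaged over media. Leaving out 1 array gave 0 to 1 in RM, 0 to 2 in TCM (without the first WT TCM array the 1 called, Gins1, was higher) and 2 to 3 averaged over media. Pcna in WT cells, not called for medium (-0.09), ran from -0.20 to 0.04 on leaving out 1 array and turned positive without the first WT RM array (0.04) or the fourth WT TCM array (0.01). The causes were not tested.

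The replicate numbers were not treated as pairs, since the labels tie them to no shared animal or batch. Deviations of same-numbered arrays correlated from -0.167 to 0.23 (median 0.057, over 0.1 in 8 of 24 pairs), and those of other pairs had a median of -0.023 (over 0.1 in 11 of 72). In 20 of 48 comparisons of an array with the arrays of another group, the best match had the same number, a hint from the data of some shared variation. The mitotic mean followed the number in part. On the arrays numbered 1 it lay above the group mean, by 1.348 in WT RM, 0.602 in Camkk2-/- RM, 1.201 in WT TCM and 0.167 in Camkk2-/- TCM. On those numbered 4 the deviations were -0.966, -0.414, -0.583 and -0.396 in the same order. What the numbers share was not tested. With a replicate block, 2 members were called for genotype in RM and 4 for medium averaged over genotypes, again without a share of all genes beside them. Those called for medium included Prc1 (-0.78, adjusted p = 0.00382), Aurkb (-0.66, adjusted p = 0.0286) and Mcm6 (-0.43, adjusted p = 0.0457). Bub1b was called for genotype in RM (-1.56, adjusted p = 0.0182) and in TCM (-1.27, adjusted p = 0.025).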
